A study of Capra hircus with 2 samples.

Results

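The level of 5 imprinted genes with roles in fetal growth, H19, DLK1, MEST, NNAT and PEG3, was compared between fetal and postnatal skeletal muscle of the goat. They were found by transcript accession, as the cattle RefSeq records NR_003958 (H19), NM_174037 (DLK1), NM_001083368 (MEST), NM_178323 (NNAT) and NM_001002887 (PEG3), among the 11663 accessions listed in either library. The files pair no accession with a gene, and the goat gene table used here holds none of these accessions, so this pairing, on which every gene name below rests, was not checked. Both libraries were made from longissimus thoracis, a muscle along the back, of the Chinese Xuhuai goat. The first came from embryos taken on day 90 of pregnancy, which lasts 150 days in this species, and the second from goats aged 6 months. No treatment or genotype is named for either, and no source used here says how many animals each library holds. The sampling text of the 6-month library repeats that of the embryos, so how the older muscle was taken is not known here. With 1 library per stage there was no replicate and no test, and the intervals below cover counting error between these 2 libraries only. Stage, animal and library preparation cannot be told apart.

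An imprinted gene is transcribed mainly from the copy inherited from 1 parent. In mammals H19 is read from the maternal copy, whereas DLK1, MEST, NNAT and PEG3 are read from the paternal copy. Several of these genes act on growth before birth, are abundant in embryonic tissue and decline in many organs after birth. The deposited values do not separate maternal from paternal reads, so imprinting itself was not measured.

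DLK1, MEST and NNAT were abundant in fetal muscle and low at 6 months, with read shares 217-fold, 107-fold and 81.1-fold higher in the fetal library. H19 was 1.91-fold higher and stayed among the most abundant transcripts at both ages. PEG3 was listed in neither library. Levels are given as RPKM, reads normalised to transcript length and to the unique reads of the library. RPKM adjusts for length but not for how well goat reads matched each cattle record, which was not tested. Differences are fetal minus 6-month values of log2(RPKM + 1), and a gene was called higher in a library at a difference of at least 1. The pseudocount understates the change of low transcripts.

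**Figure D1:**
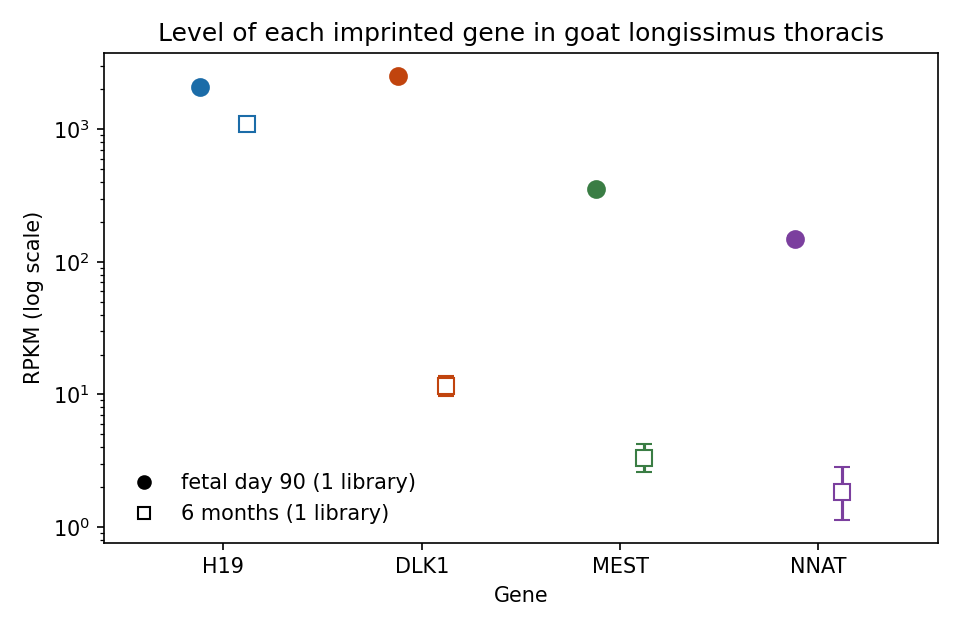
RPKM on a log axis for the 4 genes that had reads, with filled circles for the fetal library and open squares for the 6-month library. Bars are exact Poisson 95% intervals of the read count, hidden by the symbol where narrow. H19 lies above 1000 in both libraries, while DLK1, MEST and NNAT lie at 11.6 or lower at 6 months.

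H19 is a long non-coding RNA that carries a microRNA and lies beside the growth factor gene IGF2 in mammals. Its RPKM was 2097 in the fetal library (55591 reads, 95% Poisson interval 2080 to 2115) and 1098 at 6 months (20779 reads, 1083 to 1113). H19 took a 1.91-fold larger share of the fetal reads (exact binomial 95% interval 1.88 to 1.94), a difference of 0.93 log2 units, just under the threshold of 1. H19 ranked 79 among 11393 accessions of the fetal library and 84 among 10850 at 6 months, so its place in the order of abundance hardly differed. An RPKM of 1000 or more at both ages was reached by 52 accessions, H19 included.

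H19 accounted for most reads of the accessions listed as non-coding. This class held only 29 of the 11663 accessions, so its shares do not describe all non-coding RNA of the muscle. Of the reads on accessions with the RefSeq prefix NR, it took 82.8% in the fetal library (exact 95% interval 82.6 to 83.1) and 92.0% at 6 months (91.7 to 92.4). The other 28 accessions of this class reached an RPKM of at most 368 in the fetal library and 39.9 at 6 months. Over the 19 of them that reached an RPKM of 1 at either age, the median difference was 0.41 log2 units, against 0.93 for H19.

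DLK1 encodes a membrane protein related to the Notch ligands that is also shed as a soluble form and is known as a marker of preadipocytes. Its RPKM was 2531 in the fetal library (42644 reads, 95% Poisson interval 2507 to 2555) and 11.6 at 6 months (140 reads, 9.79 to 13.7). The fetal read share was 217-fold higher (exact binomial 95% interval 184 to 259), and the difference was 7.65 log2 units. DLK1 ranked 65 in the fetal library and 3596 at 6 months. Among 116 accessions with a fetal RPKM of at least 1000, whose median difference was 1.86 log2 units, 4 had a 6-month RPKM as low as that of DLK1, with DLK1 itself counted.

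MEST, also called PEG1, encodes a protein of the alpha/beta-hydrolase fold family that is abundant in embryonic mesoderm. Its RPKM was 356 in the fetal library (10043 reads, 95% Poisson interval 349 to 363) and 3.33 at 6 months (67 reads, 2.58 to 4.23). The fetal read share was 107-fold higher (exact binomial 95% interval 84.2 to 138), a difference of 6.37 log2 units. MEST ranked 220 in the fetal library and 6423 at 6 months. Of the 220 accessions with a fetal RPKM at or above that of MEST, 3 had a 6-month RPKM at or below its own, MEST included.

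NNAT encodes neuronatin, a small membrane proteolipid first known from the developing brain. Its RPKM was 149 in the fetal library (2273 reads, 95% Poisson interval 143 to 155) and 1.84 at 6 months (20 reads, 1.12 to 2.84). The fetal read share was 81.1-fold higher (exact binomial 95% interval 52.4 to 133), a difference of 5.72 log2 units. NNAT ranked 486 in the fetal library and 7535 at 6 months. Its 6-month level rests on 20 reads, which is why the interval of its ratio is the widest of the 4 relative to its size.

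PEG3 encodes a large zinc finger protein. NM_001002887 was listed in neither library, and both lists hold only accessions with at least 1 read. If PEG3 was in the authors' transcript set, 0 reads give an upper bound of 2.34e-05% of fetal and 3.28e-05% of 6-month unique reads. This bound takes 3 reads of each total, about the 1-sided 95% limit of a count of 0, and is not a maximum. No source used here says whether it was in that set. Nor was it tested how well goat reads match this cattle record. Absence of transcripts, absence from the set and a lack of uniquely matched reads therefore cannot be told apart. No fold was computed for PEG3.

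Of the 4 genes with reads, all of which reached an RPKM of at least 1, DLK1, MEST and NNAT were called higher in the fetal library and none was called higher at 6 months. Over all 9705 accessions compared, 35.1% had a fetal call and 9.46% a 6-month call, so a fetal call by itself was common. The size of the difference was not. Differences of at least 4 log2 units in favour of the fetal library, a limit chosen after the values were seen, were found for 0.855% of accessions, and DLK1, MEST and NNAT were among them. DLK1 had the rank 4 of 9705 by difference in favour of the fetal library, MEST rank 8 and NNAT rank 14. H19 had rank 3647, and 37.6% of accessions had a larger difference. The median over the 4 genes was 6.05 log2 units, against 0.61 over all accessions compared. These genes were singled out with earlier results of the same libraries known, so their place among all accessions is a description.

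**Figure D2:**
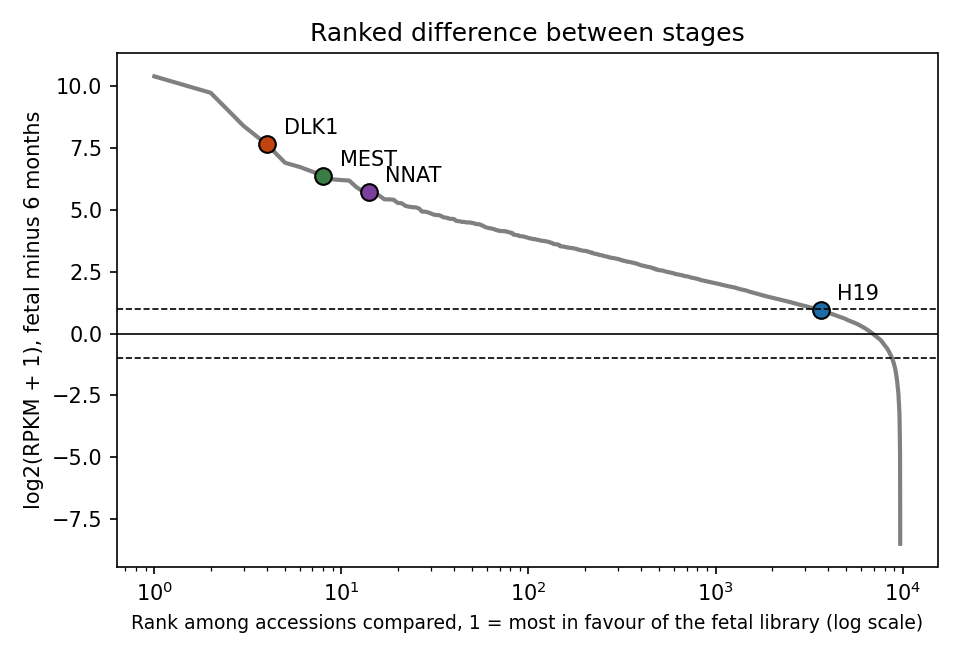
Difference in log2(RPKM + 1), fetal minus 6 months, of the 9705 accessions compared, drawn as a grey line in order of rank on a log axis. Dashed lines mark a difference of 1 in either direction. DLK1, MEST and NNAT sit at ranks 4, 8 and 14, and H19 at rank 3647.

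**Figure D3:**
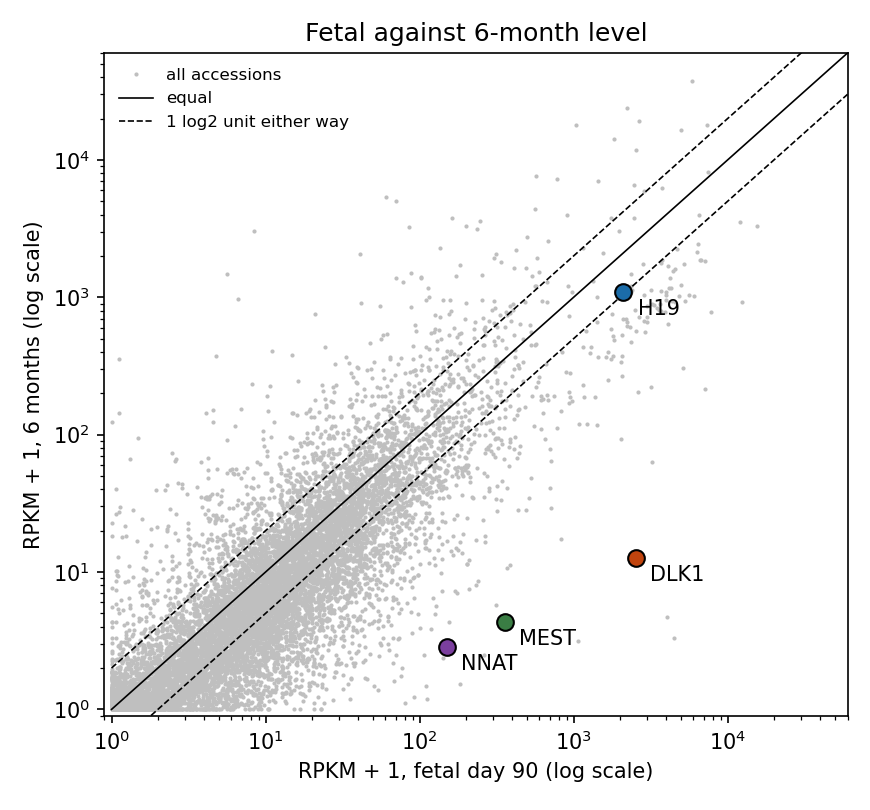
RPKM + 1 on log axes, with the fetal library on the horizontal and the 6-month library on the vertical axis, and 1 grey point per accession and coloured points for the 4 genes. H19 lies just above the lower dashed line, which marks 1 log2 unit in favour of the fetal library, and DLK1 (2531 against 11.6), MEST (356 against 3.33) and NNAT (149 against 1.84) lie far below it.

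RPKM depends on the total of each library, and on this scale most transcripts were somewhat higher before birth. Over the 8201 accessions that reached an RPKM of 1 at both ages, fetal RPKM exceeded 6-month RPKM by a median of 0.58 log2 units. Relative to that shift, the fetal ratio was 1.28-fold for H19 (95% interval 1.26 to 1.30), 146-fold for DLK1 (123 to 173), 71.7-fold for MEST (56.4 to 92.5) and 54.3-fold for NNAT (35.1 to 89.1). H19 was thus left with a difference of 0.35 log2 units, whereas the other genes kept a difference of at least 5.33 log2 units. With the shift removed, 22.3% of all accessions had a fetal call and 17.2% a 6-month call, and DLK1, MEST and NNAT kept their fetal calls.

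Ratios between genes within a library do not depend on that scaling. By RPKM, DLK1 was 1.21 times the level of H19 in the fetal library, but 0.997 times when taken per base covered by reads. At 6 months H19 was 94.3 times the level of DLK1 by RPKM. The stage ratio of DLK1 was 114 times that of H19 (exact conditional 95% interval 96.4 to 135). That of MEST was 56.03 times (44.1 to 72.4) and that of NNAT 42.5 times that of H19 (27.4 to 69.7). Of the 6 pairs compared, the 3 with H19 thus had by far the largest imbalance.

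DLK1, MEST and NNAT differed less from each other. The stage ratio of DLK1 was 2.03 times that of MEST (exact conditional 95% interval 1.49 to 2.74) and 2.68 times that of NNAT (1.59 to 4.31), so both intervals lay above 1. For MEST over NNAT the value was 1.32 (0.76 to 2.21). This interval includes 1, and an unequal change of MEST and NNAT was not detectable at this depth. DLK1 was 7.11 times the level of MEST in the fetal library and 3.50 times at 6 months.

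Together the 4 genes made up 0.863% of the fetal library and 0.230% of the 6-month library by reads. H19 made up 50.3% of these reads in the fetal library (exact 95% interval 49.99 to 50.58) and 98.9% at 6 months (98.8 to 99.1). Without H19, the share of DLK1, MEST and NNAT was 0.429% of fetal reads (54960 reads) and 0.00248% of 6-month reads (227 reads). Both libraries were made from tissue pieces, so fewer cells carrying a transcript and less of it per cell cannot be told apart. Since the other accessions are not paired with gene names, markers of muscle and of other cell types were not examined.

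The reads touched unequal parts of the listed transcripts. In the fetal library they covered 99.2% of MEST (2201 bases), 94.6% of DLK1 (1315 bases), 78.2% of H19 (2069 bases) and 33.6% of NNAT (1190 bases). At 6 months they covered 73.3% of MEST, 84.9% of DLK1, 81.5% of H19 and 27.0% of NNAT. Coverage of MEST, DLK1 and NNAT was lower in the library with few reads for them. H19 coverage was slightly higher at 6 months despite fewer reads.

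NNAT was covered far less than transcripts of like read density. NNAT had 1.91 reads per base in the fetal library. Among 225 other accessions with 1.53 to 2.39 reads per base there, median coverage was 91.7%, and 0 of them were covered less than NNAT. At 6 months, over the same relative range of read density, the median was 54.8% for 721 accessions, of which 27 were covered less. H19 was also below the median of such accessions, which was 91.7% over 31 accessions in the fetal library and 92.3% over 43 at 6 months. MEST and DLK1 were above it in both libraries.

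**Figure D4:**
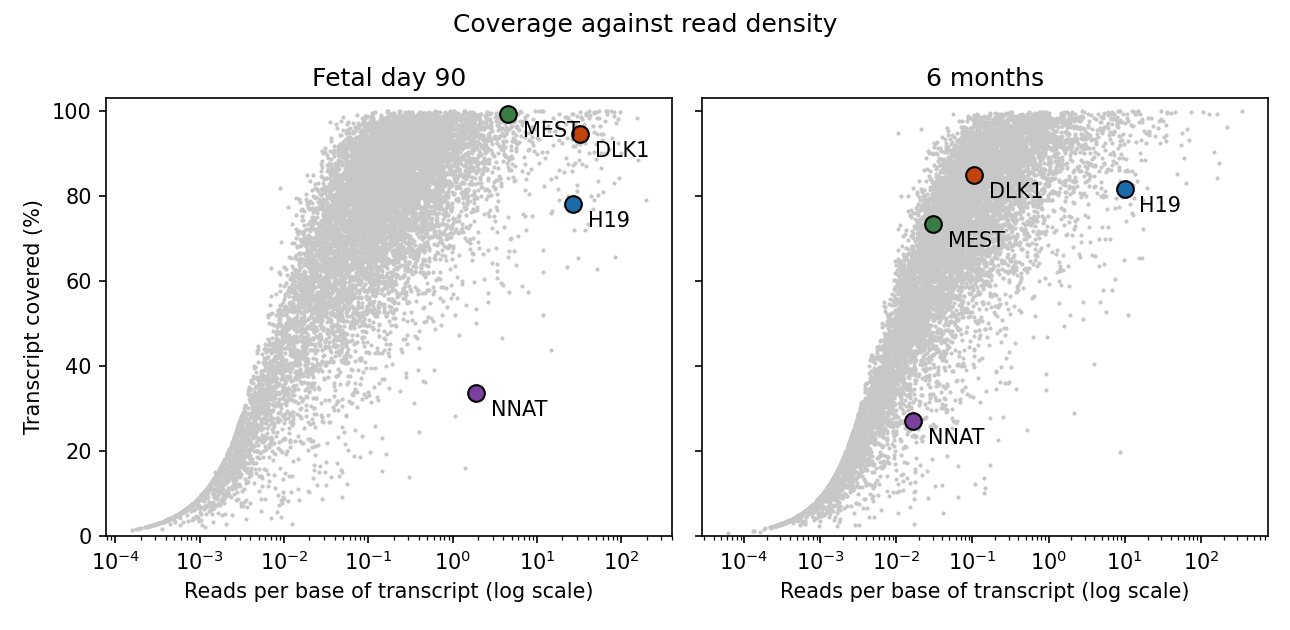
Percentage of each transcript covered by reads against reads per base on a log axis, in the fetal library (left) and at 6 months (right), with 1 grey point per accession. NNAT lies far below transcripts of like read density at 33.6% in the fetal library, and MEST reaches 99.2% there.

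Coverage bore on the order of levels between genes. On RPKM over the whole listed length, the fetal order was DLK1, H19, MEST and NNAT, with intervals that did not overlap. Per covered base, an alternative chosen after the values were seen, NNAT (444) exceeded MEST (359) in the fetal library, and H19 (2684) and DLK1 (2676) were nearly equal. At 6 months the order was H19, DLK1, MEST and NNAT on RPKM, where the intervals of MEST and NNAT overlapped. Overlap of separate intervals does not decide whether these levels differ, and no interval of their level ratio is given here. Per covered base NNAT was at 6.81 and MEST at 4.54 at 6 months, from 20 and 67 reads and without an interval. Coverage at such depth also depends on read number. Its median was 54.8% for accessions with the read density of NNAT and 66.3% for those with that of MEST. The 6-month values are therefore not a separate sign of the fetal order. Which part of NNAT was left uncovered was not analysed here.

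Genes whose transcripts overlap could share reads, and it is not given whether reads were counted by strand. Only the bounds of genes were compared here, so overlap of the transcripts themselves was not examined. In the table of goat RefSeq genes (assembly ARS1.2), which lists 4 of the 5 genes by symbol and not H19, NNAT lies within the bounds of BLCAP. MEST overlaps COPG2 and the microRNA gene MIR335 there. DLK1 and PEG3 overlap no other listed gene. The part played by reads from these neighbours was not tested.

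Accessions close in level to each gene with reads at both ages were counted. Within 0.5 log2 units in both libraries lay 6 other accessions for H19, 3 for NNAT, 1 for MEST and 0 for DLK1. No such count is given here for other accessions of like level, so low counts do not set these genes apart. Accessions are sparse at such levels. Only 116 had a fetal RPKM of at least 1000, and 83 of 9705 were higher before birth by at least 4 log2 units. The nearest to H19 was NM_001113309, with an RPKM of 2370 in the fetal library and 1086 at 6 months, at a distance of 0.18 log2 units over the 2 libraries. The nearest to NNAT was NM_001040598, with an RPKM of 142 and 1.35, at a distance of 0.28. For DLK1 the nearest accession was 1.57 log2 units away. Gene names are not paired with these accessions in the files.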

How the data were processed

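Each of the 2 libraries came with 1 deposited list of transcript accessions. Per the file headers, it gives for each accession a count of unique reads, a length, the percent of that length covered and the RPKM made by the authors. No source used here names the aligner, counting rule, strand setting, build or transcript set. Counts were whole numbers that summed to the header totals. These were 12811117 fetal and 9144138 6-month reads over 11393 and 10850 accessions. An unlisted accession thus had 0 unique reads or was not in the set. RPKM was recovered from the counts for all listed accessions within a relative error of 1e-06. None of the accessions was found in the goat RefSeq table (0 of 11663), so the wider list of imprinted genes and the cell type markers could not be applied. No transcript sequence was used here.

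Accessions that reached an RPKM of 1 at either age were compared on log2(RPKM + 1). No p-value was computed. Intervals are exact 95% Poisson, binomial (Clopper-Pearson) or conditional odds ratio intervals. These intervals cover counting error only. They treat reads as independent molecules, which reads are not, so they may be too narrow even for counting error. The rule for named genes took all 5 members, whatever their values, and the accessions nearest to them in both libraries, of which at most 2 are named. Members and lists were chosen with earlier results of these data known. The calling rule and intervals were run on simulated counts that held counting error alone. Such counts cannot show how the rule or intervals behave when animals or library preparations differ. Alternatives covered the pseudocount, the scaling, the threshold and the minimum RPKM. The software was SciPy 1.17.1, NumPy 2.4.6 and pandas 2.3.3 under Python 3.11.15, with figures by matplotlib 3.10.9.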

Additional observations from a re-analysis of the deposited data

How the results depend on the processing

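Single libraries left no replicate to omit. No paired analysis was possible because no second library exists for either stage in these files. In all 9 alternatives run for the count of calls, 3 genes were called higher in the fetal library, as on the deposited RPKM. The thresholds of 2 and 4 and the changes of the minimum RPKM could not alter this count. DLK1, MEST and NNAT differed by at least 5.72 log2 units and had a fetal RPKM of at least 149. The threshold of 4 was also chosen after the values were seen. Of all accessions, 18.7% to 41.5% had a fetal call under the 7 alternatives that kept the threshold of 1. The repeated count thus says little by itself. The share was 10.8% at a threshold of 2 and 0.855% at 4. The median difference of the 4 genes was 6.05 log2 units and became 4.97 with a pseudocount of 5, which weighs on the low 6-month levels. Under the other alternatives the median stayed between 5.56 and 6.58, the medians of the lower and upper counting bounds of the 4 genes. These limits are not an interval of the median itself. H19 ranged from 0.35 (centring on the median ratio) to 0.93, never reaching 1. Per covered base, the level ratio of MEST to NNAT turned from 2.39 to 0.81 in the fetal library and from 1.81 to 0.67 at 6 months. That of DLK1 to H19 turned from 1.21 to 0.997 in the fetal library. The 6-month depth limits NNAT most, at 20 reads, and this holds for its level per covered base too.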
